A study of Homo sapiens with 12 samples.

Results

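The data are the interaction between knockdown of PHGDH and a treatment that the labels call Mix, measured in HaCaT, an immortalised keratinocyte line grown from human skin. The interaction is the mix change under PHGDH siRNA minus the mix change under control siRNA, a difference of differences on the log2(FPKM + 1) scale. FPKM is the fragment count scaled by gene length and library size. All 12 of 12 samples entered, in 4 groups of 3 libraries: Control-siRNA without mix, Control-siRNA+Mix, PHGDH-siRNA without mix and PHGDH-siRNA+Mix. Mix was applied for 24 h; both arms were transfected with siRNA, and no untransfected group is among the samples. What Mix contains and which siRNA sequences were used are not stated in the labels. A gene was taken if its mean reached 0.5 FPKM in any of the groups, which gave 14577 of 58735 genes and left 44158 untested. Whether replicate libraries are separate cultures is not stated, so p-values reflect the spread among these 12 libraries alone, which may be technical.

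PHGDH encodes phosphoglycerate dehydrogenase, the first enzyme of serine synthesis from a glycolytic intermediate, and serine in turn feeds glycine, folate-bound carbon units, nucleotides and glutathione. Keratinocytes answer inflammatory cytokines through NF-kappaB and STAT3, which drive chemokines that recruit neutrophils, antimicrobial S100 proteins and defensins, and feedback inhibitors of the same pathways. A negative interaction means a smaller rise with mix, or a larger fall, under PHGDH siRNA than under control siRNA. It can come from a different level without mix, a different level with mix, or both, so levels are given for all 4 groups.

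The targeted gene was measured first. PHGDH stood at 36.5, 56.2 and 45.8 FPKM in Control-siRNA, 31.9, 31.2 and 26.6 in Control-siRNA+Mix, 23.7, 20.1 and 16.9 in PHGDH-siRNA, and 19.1, 13.3 and 11.5 in PHGDH-siRNA+Mix. Every PHGDH-siRNA library lay below every control library of the same mix condition, so the libraries follow their labels. The interaction of PHGDH itself was 0.13 with a 95% interval from -0.51 to 0.78, in which neither a larger nor a smaller knockdown with mix was resolved. Keratinocyte markers were present in every library (15 of 15 tested). Markers of other cells were near 0: the summed level per library was 0.712 to 2.12 FPKM for 10 fibroblast genes, 0.754 to 1.26 for 7 melanocyte genes, 0.601 to 3.4 for 11 leukocyte genes and 0.297 to 0.998 for 8 endothelial genes. The leukocyte genes PTPRC, CD3D and TYROBP were listed at 0 in every library. CD14, the 1 leukocyte gene that entered the test, had group means of 1.47 FPKM in Control-siRNA, 2.27 in Control-siRNA+Mix, 1.45 in PHGDH-siRNA and 1.22 in PHGDH-siRNA+Mix. Its interaction was -0.47.

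Libraries held 16403845 to 20901128 reads, recovered from the FPKM values. Replicate 2 of PHGDH-siRNA and of PHGDH-siRNA+Mix stood apart from the other 10 libraries on the second principal component (46.3 or more, against 14.4 or less). Mitochondrial genes took 3.81% to 7.08% of reads, with the highest share in replicate 1 of Control-siRNA. Many values below move by over 1.5 times without one or both of these libraries, and second values are given beside them or among the ranges in the closing section.

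No gene passed the test of the interaction. In limma over 14577 genes, 0 had an adjusted p under 0.05, and the lowest adjusted p was 1 after rounding. At an unadjusted p under 0.05 there were 250 genes, or 1.72%, of which 133 were negative (0.912%) and 117 positive (0.803%). That is below the share of 0.05 that well-calibrated p-values give where no gene differs, so those of this fit ran high. The reason was not tested. The same model on reads recovered from the table (voom) also gave 0 genes past the adjusted threshold, with 188 at an unadjusted p under 0.05. With a replicate block that pairs same-numbered libraries within each siRNA arm, 0 genes passed (lowest adjusted p 0.471 in limma) and 486 had an unadjusted p under 0.05 (3.33%). Without replicate 2 of both PHGDH-siRNA groups 598 did (4.1%). Within each arm, by contrast, mix changed 1391 genes under control siRNA (9.54%; 5.62% higher and 3.92% lower) and 1291 under PHGDH siRNA (8.86%; 5.22% higher and 3.64% lower) at an adjusted p under 0.05. The median interaction over all genes was -0.0039, with 50.9% below 0 and 49.1% above. An interaction past 0.5 in either direction was seen in 843 genes, and past 1 in 131. For protein-coding genes the median 95% interval reached 0.546 to either side, a factor of 1.46 in FPKM + 1. Differences smaller than that in the mix response were mostly not resolvable with 3 libraries a group in this fit, which takes no pairs. That interval is for a single gene without adjustment. Larger differences, such as -1.74 for CXCL1 and -1.97 for CXCL8, also did not pass after adjustment over all genes tested. Everything below describes genes that did not pass, in levels and intervals, and none of it is a call.

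**Figure D1:**
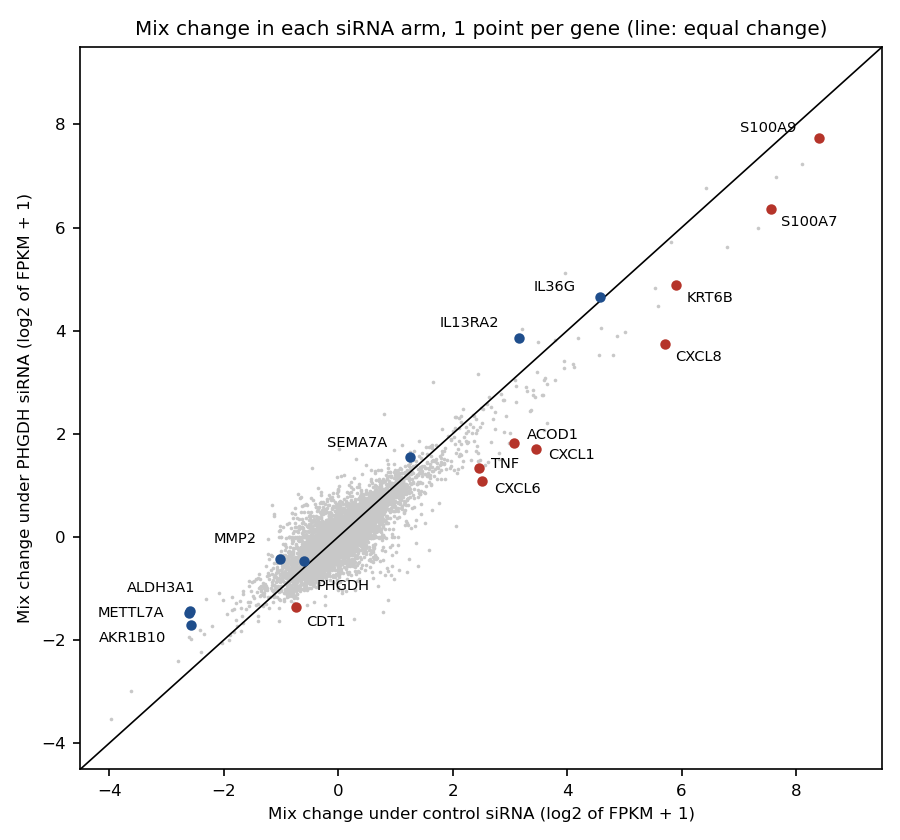
Mix change of each of 14577 genes under control siRNA (horizontal) and under PHGDH siRNA (vertical), both in log2(FPKM + 1), with the line of equal change. Named genes below the line (red) have a negative interaction and those above it (blue) a positive one; CXCL8 lies at 5.71 and 3.74, S100A7 at 7.55 and 6.35, and IL13RA2 at 3.16 and 3.86.

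A further description was whether the arms overlapped: a gene was counted where each of the 9 library differences (mix minus no mix) of one arm lay above each of the 9 of the other. This held for 157 genes (1.08%), 81 positive (0.556%) and 76 negative (0.521%). The genes with the lowest unadjusted p were often scarcely measured. Of the 250 genes under 0.05, 63.2% were not protein-coding, against 22.2% of all genes tested. In 47.6% of them no library reached 20 reads, against 10.7% of all. Of the 11339 protein-coding genes tested, 92 (0.811%) had an unadjusted p under 0.05, 50 of them negative (0.441%) and 42 positive (0.37%), and 94 (0.829%) had arms without overlap.

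Among the negative interactions, chemokine genes of the CXC family that attract neutrophils lay at the far end. CXCL1 was at 23.9, 31.9 and 24.8 FPKM in Control-siRNA and 308, 282 and 314 in Control-siRNA+Mix. Under PHGDH siRNA it was at 67.7, 47.1 and 39.5 without mix and 178, 113 and 229 with mix. The PHGDH-siRNA libraries were thus the higher ones without mix and the lower ones with mix, with no overlap in either condition. CXCL1 rose with mix in both arms (limma adjusted p = 1.35e-05 under control siRNA and 0.00214 under PHGDH siRNA), 11.2-fold and 3.37-fold by mean FPKM. Its interaction was -1.74 (SE 0.36, limma unadjusted p = 0.00059), and the 9 differences of the arms did not overlap.

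CXCL8, the gene of interleukin-8, had the most negative value of the epithelial cytokine list. It was at 3.95, 2.44 and 3.54 FPKM in Control-siRNA, 198, 211 and 264 with mix, 20.5, 4.74 and 9.74 in PHGDH-siRNA, and 220, 64.6 and 218 in PHGDH-siRNA+Mix. Without mix every PHGDH-siRNA library was above every Control-siRNA library, while with mix the 2 groups overlapped and replicate 2 of PHGDH-siRNA+Mix was the low one. CXCL8 rose 67.7-fold with mix under control siRNA and 14.4-fold under PHGDH siRNA (limma adjusted p = 4.62e-05 and 0.0011). The interaction was -1.97 (SE 0.72, limma unadjusted p = 0.0191), and -1.39 without that replicate 2 library. Without replicate 2 of both PHGDH-siRNA groups it was -1.86. CXCL6, a neighbour of CXCL1 and CXCL8 on chromosome 4, was at 8.79, 5.48 and 7.73 FPKM in Control-siRNA, 42.3, 47.1 and 48.1 with mix, 8.16, 14.5 and 10.1 in PHGDH-siRNA, and 18, 21.2 and 35.1 in PHGDH-siRNA+Mix. For CXCL6 the groups overlapped without mix and were apart with mix, and the folds were 6.25 and 2.26 (interaction -1.42, SE 0.36, limma unadjusted p = 0.0025). CXCL2, CXCL3 and CXCL5, picked after their values were seen because they belong to the same family, had interactions of -0.96, -1.30 and -1.12 (limma unadjusted p = 0.098, 0.10 and 0.012). Without replicate 2 of PHGDH-siRNA+Mix, CXCL2 came to -0.44 and CXCL3 to -0.53.

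The sequences upstream of CXCL1 and CXCL8 are shown because both genes lie at the negative end of the list and are textbook targets of NF-kappaB and AP-1. They come from RefSeq on GRCh38.p14, plus strand: chr4:73869143-73869392 for CXCL1 and chr4:73740319-73740505 for CXCL8. Both end before the start of the gene in the deposited table as well as in RefSeq, and both of the 2 genes sought were in the table. Capitals mark GGNNTTTCC, a form of the NF-kappaB motif settled on after the windows were seen, and TGANTCA, the AP-1 motif, each searched on both strands.
CXCL1: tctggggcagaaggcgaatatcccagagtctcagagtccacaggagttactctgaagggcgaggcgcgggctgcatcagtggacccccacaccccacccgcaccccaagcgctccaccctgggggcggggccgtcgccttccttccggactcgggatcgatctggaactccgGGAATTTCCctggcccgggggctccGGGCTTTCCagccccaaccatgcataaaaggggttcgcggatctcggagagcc
CXCL8: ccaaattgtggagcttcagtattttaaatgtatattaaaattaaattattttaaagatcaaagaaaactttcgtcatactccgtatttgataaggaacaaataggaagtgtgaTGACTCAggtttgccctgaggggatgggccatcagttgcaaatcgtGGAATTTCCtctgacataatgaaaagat
CXCL1 holds GGNNTTTCC from 78 to 70 and from 53 to 45 bases before its RefSeq start. CXCL8 holds it from 91 to 83 bases before its RefSeq start and TGANTCA from 137 to 131 bases before it. Of 35116 promoters of 250 bases, 5.48% hold GGNNTTTCC and 6.57% TGANTCA. TGACNNNGC, the core of the NRF2 motif (10.9% of promoters), and TGATGNAA, a form of the ATF4 motif (3.14%), were searched too and have no match in these windows; a match, or none, is a description of these letters only.

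TNF, the tumour necrosis factor gene, followed the course of CXCL1 at a lower level. Its values were 0.827, 0.434 and 0.189 FPKM in Control-siRNA, 6.4, 7.56 and 7.08 in Control-siRNA+Mix, 1.48, 1.12 and 1.12 in PHGDH-siRNA, and 4.17, 4.58 and 5.16 in PHGDH-siRNA+Mix. It was higher without mix and lower with mix in all PHGDH-siRNA libraries, and rose 14.5-fold in the control arm and 3.74-fold in the PHGDH-siRNA arm. The interaction was -1.12 (SE 0.22, limma unadjusted p = 0.0004). On the voom scale, which adds far less to low values, TNF came to -2.14.

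ACOD1, the itaconate-making enzyme of activated immune cells, had the lowest unadjusted p of all negative genes named (8.9e-05 in limma). It was listed at 0 in all 3 Control-siRNA libraries and in 2 of the 3 PHGDH-siRNA libraries, with 0.0832 FPKM in the other. With mix it stood at 6.96, 6.87 and 8.56 FPKM under control siRNA and 1.89, 3.33 and 2.76 under PHGDH siRNA. The difference therefore lay in the mix groups, and the interaction was -1.26 (SE 0.21). BCL2A1, an NF-kappaB target that restrains apoptosis, did likewise: at most 0.0957 FPKM in any library without mix, 3.32, 3.2 and 3.47 with mix under control siRNA, and 1.51, 1.39 and 1.99 with mix under PHGDH siRNA (interaction -0.77, SE 0.16, limma unadjusted p = 0.0005). CNGB1, a subunit of a cyclic nucleotide-gated channel of photoreceptors, was at 0.0579 FPKM or below without mix, at 3.89, 4.41 and 4.15 in Control-siRNA+Mix and at 1.89, 1.38 and 2.59 in PHGDH-siRNA+Mix (interaction -0.84, SE 0.20).

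S100A7, the antimicrobial protein psoriasin, showed the largest changes with mix among the genes named so far. It was at 1.24, 0.835 and 0.691 FPKM in Control-siRNA and 0.901, 0.681 and 0.4 in PHGDH-siRNA, which overlapped. With mix it reached 349, 331 and 395 FPKM under control siRNA and 148, 95 and 169 under PHGDH siRNA, which did not. The rise was 389-fold and 208-fold (limma adjusted p = 1.49e-08 and 2.42e-08), and the interaction -1.20 (SE 0.29, limma unadjusted p = 0.0018).

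**Figure D2:**
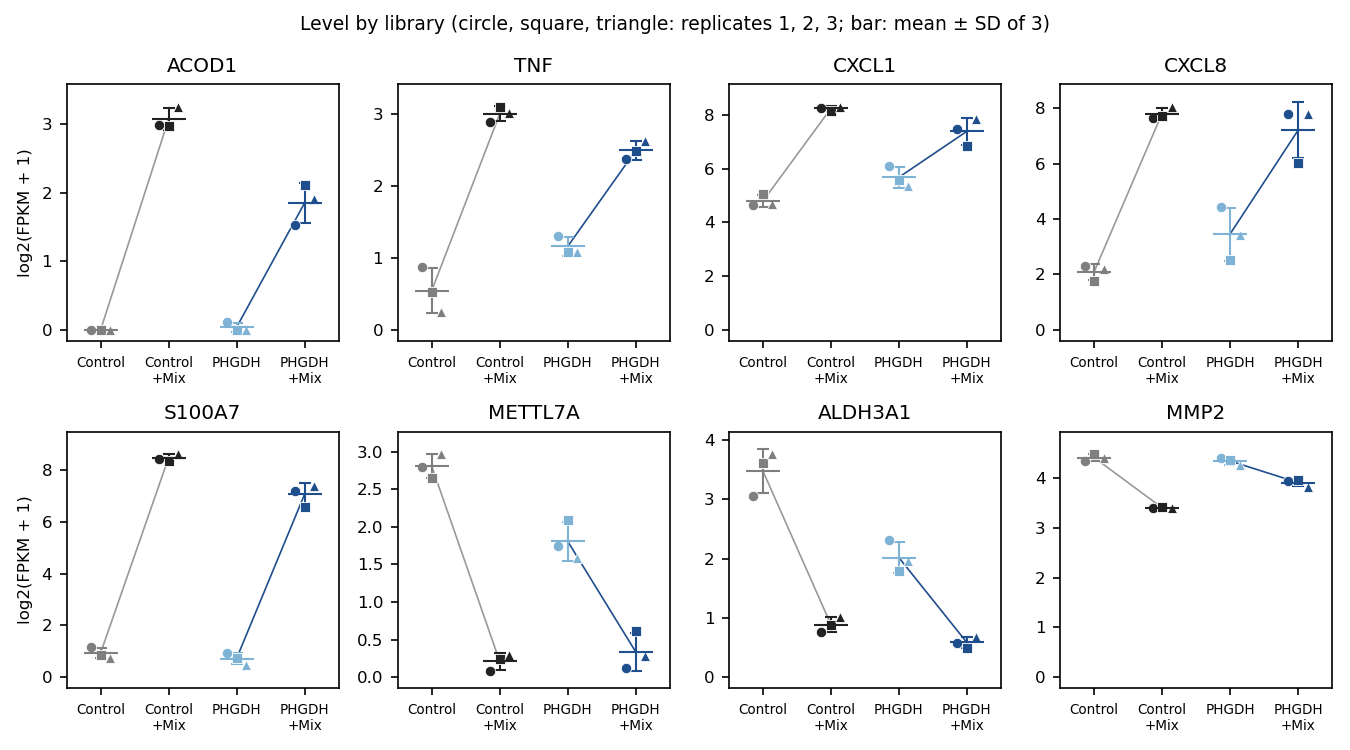
Level of 8 genes in each library, in log2(FPKM + 1), by siRNA and mix, with the mean and SD of 3 libraries as bars and lines joining the means within an arm. In CXCL1 and TNF the PHGDH-siRNA arm starts higher and ends lower, and in ACOD1 and S100A7 the arms part with mix. In METTL7A they part without mix, and ALDH3A1 is lower under PHGDH siRNA in both conditions. For CXCL8 replicate 2 of PHGDH-siRNA+Mix (square, 64.6 FPKM) is the low point of its group.

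The wider list of epithelial cytokines and chemokines had 30 of 35 genes tested. Of these, 21 had an interaction below 0 and 9 above, with a median of -0.615, where all genes tested had 50.9% below 0 and a median of -0.0039. In the list, 10 genes had an unadjusted p under 0.05, all negative (background 0.912%), and 7 had arms without overlap in that direction (background 0.521%). Mix raised 20 of the 30 under control siRNA and 17 under PHGDH siRNA, against 5.62% and 5.22% of all genes. Some members, such as IL19, IL20 and CXCL5, entered only through the mix groups, where they are high, so these counts describe the list and test nothing. The median was -0.296 without replicate 2 of PHGDH-siRNA+Mix and -0.401 without replicate 2 of both PHGDH-siRNA groups.

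Members of the list other than the CXC chemokines lay on both sides of 0. IL19 and IL20, neighbouring cytokine genes of the IL-10 family, had interactions of -1.43 and -0.84, IL1A -1.04 and CCL5 -1.17 (limma unadjusted p = 0.0056, 0.017, 0.050 and 0.045); these 4 were also picked after their values were seen. Leaving out 1 library brought IL20 to -0.54 (replicate 2 of PHGDH-siRNA+Mix) and CCL5 to -0.71 (replicate 2 of PHGDH-siRNA). Without replicate 2 of both PHGDH-siRNA groups IL20 came to -0.56 and CCL5 to -0.98. IL19 was at 0.0649 FPKM or below without mix, at 11.9, 11 and 12.7 in Control-siRNA+Mix, and at 4.83, 1.5 and 6.04 in PHGDH-siRNA+Mix. IL1B, the interleukin-1 beta gene, had -0.82 with a 95% interval from -2.23 to 0.60, with PHGDH-siRNA+Mix between 112 and 572 FPKM; leaving out replicate 1 or 2 of that group gave -1.36 or -0.19. The chemokine gene CCL20 had -0.43 (-1.37 to 0.51) and changed sign under voom, at 0.036. IL23A, a subunit of interleukin-23, had 0.26 (-0.82 to 1.33). On the positive side, IL1RN, the interleukin-1 receptor antagonist, had 0.58 (-0.099 to 1.26) and IL24, a further IL-10 family cytokine, 0.35 (-0.31 to 1.00), which was 0.66 without replicate 2 of PHGDH-siRNA+Mix and turned to -0.47 under voom; both were named after their values were seen.

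IL36G, an epidermal cytokine of the IL-1 family, depended on the scale. It was at 0.442, 0.608 and 0.0384 FPKM in Control-siRNA, 33.1, 27 and 33.1 with mix, 1.66, 5.33 and 0.971 in PHGDH-siRNA, and 116, 50.8 and 85.6 in PHGDH-siRNA+Mix. Both PHGDH-siRNA groups thus lay above their controls in every library. On log2(FPKM + 1) the interaction was 0.072 (SE 0.56), with a pseudocount of 0.1 it was -1.17, and under voom -1.69. By mean FPKM the rise was 85.7-fold and 31.7-fold.

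Of the antimicrobial and acute-phase genes, 21 of 28 were tested, 17 of them below 0 (median -0.55), and 4 had an unadjusted p under 0.05, each negative (background 0.912%). They were S100A7, its close relative S100A7A (-0.72, limma unadjusted p = 0.0021), S100A12 (-0.53, 0.037) and ZC3H12A (-0.70, 0.042), the last an RNase that destabilises inflammatory mRNAs and named here after its value was seen. S100A12 entered only through groups with mix, where it is high. S100A7A entered only through Control-siRNA+Mix (mean 1.44 FPKM, against 0.497 in PHGDH-siRNA+Mix). The counts of this list thus describe it and test nothing. S100A7 and S100A7A are closely similar copies, as are DEFB4A and DEFB4B, so reads may be split between them and their values are uncertain. S100A8 and S100A9, the subunits of calprotectin, reached 439, 461 and 478 and 3130, 3020 and 3430 FPKM in Control-siRNA+Mix. In PHGDH-siRNA+Mix they reached 229, 282 and 280 and 1860, 2230 and 1980 FPKM. Both were lower in every PHGDH-siRNA+Mix library, but the interactions of -0.67 (95% interval -1.38 to 0.043) and -0.68 (-1.92 to 0.56) rest also on levels without mix that varied between replicates. Without replicate 2 of PHGDH-siRNA they were -0.41 for S100A8 and -0.16 for S100A9. LCN2, an iron-binding antimicrobial protein, had -0.55 and DEFB4A, a beta-defensin, -0.97; in both, replicate 2 of PHGDH-siRNA+Mix was low (324 and 4.41 FPKM), and without it the values were 0.071 and -0.059. Without replicate 2 of both PHGDH-siRNA groups the median of the list was -0.083. S100A12 was listed at 0 in all 3 PHGDH-siRNA libraries, and its sign turned with the scale, to 0.78 with a pseudocount of 0.1 and 1.45 under voom.

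The NF-kappaB feedback and target genes had 31 of 35 tested, 23 below 0, and a median of -0.20. TNFAIP3, which encodes the inhibitor A20, was at 5.49, 5.04 and 4.42 FPKM in Control-siRNA and 12.6, 20.2 and 8.28 in PHGDH-siRNA, and at 57.4, 55 and 67.8 and 67.3, 107 and 56.8 with mix. It was higher under PHGDH siRNA without mix and overlapped with mix (interaction -0.91, SE 0.41, limma unadjusted p = 0.047). Its value was -0.60 without replicate 2 of PHGDH-siRNA and -0.86 without replicate 2 of both PHGDH-siRNA groups. NFKBIZ, the atypical inhibitor and coactivator of NF-kappaB, overlapped without mix and was at 14.5, 14.9 and 15.7 FPKM in Control-siRNA+Mix against 9.65, 11.1 and 13.1 in PHGDH-siRNA+Mix (-0.53, SE 0.19, limma unadjusted p = 0.016). With BCL2A1 these made 3 of 31 at an unadjusted p under 0.05, each negative (background 0.912%). BCL2A1 entered only through the mix groups, where it is high, so this count describes the list and tests nothing.

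Of 22 tested JAK-STAT3 feedback and target genes, 16 lay below 0 with a median of -0.084. The 2 most negative were the feedback inhibitors SOCS3 (-0.80, 95% interval -1.64 to 0.043) and SOCS1 (-0.72, -1.36 to -0.077). SOCS3 was -0.49 without replicate 2 of PHGDH-siRNA+Mix, and SOCS1 was -0.45 without replicate 2 of PHGDH-siRNA. Without replicate 2 of both PHGDH-siRNA groups they were -0.67 and -0.55. SOCS1 stood at 21.8, 22.5 and 21.3 FPKM in Control-siRNA+Mix and 15.1, 20.6 and 18.3 in PHGDH-siRNA+Mix. Of 39 tested interferon-stimulated genes, 24 were below 0, and IFIT2 (-0.49, limma unadjusted p = 0.038) was the 1 gene under 0.05 (background of negative genes 0.912%). Their median was -0.04, but -0.26 without replicate 2 of PHGDH-siRNA+Mix and 0.094 without replicate 1 of that group. IFIT2 was at 15.4, 17.7 and 16.3 FPKM in Control-siRNA+Mix and 9.6, 9.53 and 11.7 in PHGDH-siRNA+Mix.

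The metabolic enzymes known to be induced in inflamed tissue had 18 of 21 tested genes below 0 (median -0.23). ACOD1, DUOXA2 and CYP1A1 were under an unadjusted p of 0.05, each negative (background 0.912%). ACOD1 entered only through the mix groups, where it is high, so these counts describe the list and test nothing. DUOXA2, the maturation factor of the hydrogen peroxide-making oxidase DUOX2, was at 2.45, 2.15 and 2.94 FPKM in Control-siRNA+Mix and 1.21, 1.46 and 1.25 in PHGDH-siRNA+Mix (-0.57, SE 0.21). CYP1A1, a target of the aryl hydrocarbon receptor, fell with mix in both arms, 2.91-fold under control siRNA and 6.98-fold under PHGDH siRNA (-0.60, SE 0.27). Wound keratins and squamous serpins had 14 of 17 below 0 and a median of -0.23, which was -0.036 without replicate 2 of PHGDH-siRNA and -0.50 without replicate 2 of PHGDH-siRNA+Mix. KRT6B, a keratin of activated epidermis, was at 71.8, 68.5 and 75.2 FPKM in Control-siRNA+Mix and 60.1, 23.5 and 64.5 in PHGDH-siRNA+Mix. Its interaction was -1.01 (SE 0.45, limma unadjusted p = 0.046) and -0.56 without replicate 2 of PHGDH-siRNA+Mix. KRT16 had -0.39 with an interval from -2.53 to 1.76.

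Several of the named genes with positive interactions fell with mix and stood lower under PHGDH siRNA before it. METTL7A, a methyltransferase of lipid droplets and the endoplasmic reticulum, was at 5.95, 5.3 and 6.83 FPKM in Control-siRNA and 2.34, 3.27 and 2.01 in PHGDH-siRNA. With mix it was at 0.0562, 0.187 and 0.232 under control siRNA and 0.0882, 0.529 and 0.212 under PHGDH siRNA, which overlapped. It fell 38.1-fold and 9.18-fold (limma adjusted p = 4.25e-06 and 0.000345), with an interaction of 1.13 (SE 0.24, limma unadjusted p = 0.00063). AGR2, a disulfide isomerase of secretory cells, was at 1.79, 1.4 and 1.71 FPKM in Control-siRNA and between 0.285 and 0.488 in all 9 other libraries. It fell in the control arm (limma adjusted p = 0.000361), while in the PHGDH-siRNA arm, with 0.488, 0.476 and 0.377 against 0.289, 0.285 and 0.342, the adjusted p was 0.495 (interaction 0.78, SE 0.16). AGR2 entered only through Control-siRNA, where it is high, so these values describe it and test nothing.

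ALDH3A1 and AKR1B10, enzymes that clear reactive aldehydes, also fell with mix and stood lower under PHGDH siRNA without it. With mix, ALDH3A1 was again lower in every PHGDH-siRNA library, while AKR1B10 overlapped. ALDH3A1 was at 7.34, 11.3 and 12.6 FPKM in Control-siRNA, 0.703, 0.833 and 1.03 with mix, 3.95, 2.47 and 2.87 in PHGDH-siRNA, and 0.486, 0.414 and 0.607 in PHGDH-siRNA+Mix. It fell 12.2-fold and 6.17-fold (interaction 1.16, SE 0.27, limma unadjusted p = 0.0013). AKR1B10 went from 7.22, 8.21 and 8.89 to 0.395, 0.749 and 0.452 FPKM under control siRNA, and from 3.39, 2.96 and 3.14 to 0.325, 0.403 and 0.093 under PHGDH siRNA. Its folds, 15.2 and 11.6, were closer to each other than the interaction of 0.86 on log2(FPKM + 1), and under voom the value was 0.27. PADI3, which citrullinates proteins of the hair follicle and epidermis, behaved likewise, with 7.54-fold and 5.98-fold falls, an interaction of 0.79 and a voom value of 0.32. EPHX1, an epoxide hydrolase, fell 2.99-fold and 1.89-fold (0.61, SE 0.20, limma unadjusted p = 0.010).

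ALDH3A1, AKR1B10 and EPHX1 are on the list of NRF2 and glutathione genes, of which 38 were tested, 28 lay above 0 and the median was 0.10. They were the 3 members at an unadjusted p under 0.05 (background of positive genes 0.803%), and arms without overlap were seen in 2 (background 0.556%). Mix lowered 9 of the 38 under control siRNA and 8 under PHGDH siRNA, against 3.92% and 3.64% of all genes. NQO1 and HMOX1, widely used NRF2 targets chosen after their values were seen, had 0.25 and 0.11 (limma unadjusted p = 0.55 and 0.75). The median of the list was -0.034 without replicate 2 of PHGDH-siRNA.

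MMP2, a gelatinase, was well covered, with at least 826 reads in every library. It was at 19.4, 21.4 and 20.3 FPKM in Control-siRNA and 20.3, 19.6 and 18.2 in PHGDH-siRNA, which overlapped, and with mix at 9.61, 9.71 and 9.49 against 14.3, 14.7 and 13.2, which did not. It fell 2.12-fold under control siRNA and 1.38-fold under PHGDH siRNA (limma adjusted p = 6.33e-05 and 0.0166), with an interaction of 0.57 (SE 0.13, limma unadjusted p = 0.0013). IL13RA2, a decoy receptor of interleukin-13, rose with mix in both arms (limma adjusted p = 9.64e-08 and 2.42e-08), from at most 0.206 FPKM in any library without mix to 9.5, 9.4 and 9.21 under control siRNA and 15.9, 19 and 13.5 under PHGDH siRNA (0.70, SE 0.17, limma unadjusted p = 0.0020). Every mix library was higher under PHGDH siRNA than under control siRNA. The matrix and protease list to which MMP2 belongs had 17 of 41 above 0 and a median of -0.04.

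Epidermal differentiation and cornification genes were spread to both sides, with 22 of 36 tested above 0 and a median of 0.10, which turned to -0.13 without replicate 2 of PHGDH-siRNA+Mix. LCE3D, a late cornified envelope gene, was at 1.4, 0.799 and 1.29 FPKM in Control-siRNA+Mix and 2.01, 2.82 and 2.12 in PHGDH-siRNA+Mix, from 0.183 or below without mix (0.70, SE 0.21, limma unadjusted p = 0.0060). With PADI3 it made 2 of 36 at an unadjusted p under 0.05, both positive (background 0.803%). LCE3D entered only through the mix groups, where it is high, so this count describes the list and tests nothing. SPRR1B, a cornified envelope precursor, lay at the other end with -0.82, and TGM1, the transglutaminase that crosslinks the envelope, had -0.56 (limma unadjusted p = 0.13 and 0.61). These 2 were named after their values were seen, and without replicate 2 of PHGDH-siRNA they came to -0.44 and 0.46. Without replicate 2 of both PHGDH-siRNA groups they came to -0.83 and -0.26. SEMA7A, a membrane-anchored semaphorin, was at 3.6, 6.17 and 3.75 FPKM in Control-siRNA, 11.6, 12.5 and 11.6 with mix, 13.8, 11.7 and 14.9 in PHGDH-siRNA and 49.1, 39.2 and 36.3 in PHGDH-siRNA+Mix. Both conditions were higher under PHGDH siRNA in every library, the folds with mix were 2.64 and 3.08, and the interaction was 0.29 (-0.27 to 0.85). ARID3B, a DNA-binding protein, was likewise higher under PHGDH siRNA in both conditions, with an interaction of 0.059 (-0.30 to 0.42) that turned to -0.051 under voom.

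The pathway that PHGDH opens showed no tilt. Of 20 tested genes of serine synthesis and the folate cycle, 10 lay above 0 and 10 below, with a median of -0.0023, and 0 had an unadjusted p under 0.05. PSAT1 and PSPH, the enzymes after PHGDH, had -0.063 (-1.36 to 1.23) and 0.046 (-1.09 to 1.18). Their intervals were wide because replicate 2 was low in both PHGDH-siRNA groups: PSAT1 was at 171, 73.3 and 151 FPKM in PHGDH-siRNA and 216, 58.1 and 120 in PHGDH-siRNA+Mix, against 160 to 190 in the control libraries. The mitochondrial enzymes SHMT2 and MTHFD2 each had -0.17. In this fit, which takes no pairs, a difference in the mix response of these genes that stays within such intervals was not resolvable. With pairs the intervals may differ.

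Genes of the amino acid response driven by ATF4 varied widely between replicates. Of 34 tested, 28 lay below 0 and the median was -0.15, but it ran from -0.53 without replicate 1 of PHGDH-siRNA+Mix to 0.15 without replicate 2 of that group. CHAC1, a glutathione-degrading enzyme of this response, was at 73.7, 2.68 and 15.6 FPKM in PHGDH-siRNA and 97.8, 3.33 and 17.7 in PHGDH-siRNA+Mix, against 4.63 to 7.37 in Control-siRNA and 16.7 to 19.1 in Control-siRNA+Mix. Same-numbered libraries of the PHGDH-siRNA groups thus lay close together, and the interaction was -1.25 with an interval from -4.69 to 2.20 (SE 1.56). With the replicate block within each arm the value was the same with an SE of 0.17, and the adjusted p was 0.471 in limma. Without the block, leaving out 1 library moved it between -2.40 and -0.14. DDIT3 and TRIB3, further ATF4 targets, had -0.44 (-2.55 to 1.68) and -0.057 (-1.49 to 1.38).

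Genes of the cell cycle leaned to negative values of small size. Of 59 tested DNA replication and S phase genes, 53 lay below 0 with a median of -0.13, and of 59 tested mitosis and G2/M genes, 52 lay below 0 with a median of -0.20. Over all genes tested, 50.9% lay below 0. An unadjusted p under 0.05 was seen in 1 gene of the first list, a negative one, and 0 of the second (background of negative genes 0.912%). That gene, CDT1, which licenses replication origins, was at 31.9, 49.3 and 37.6 FPKM in Control-siRNA, 24.3, 23.3 and 21.3 with mix, 59.2, 39.6 and 39.4 in PHGDH-siRNA and 18.1, 18.4 and 14.7 in PHGDH-siRNA+Mix. It fell 1.72-fold and 2.7-fold (interaction -0.62, SE 0.27). Mix lowered 27 S phase and 15 mitosis genes under control siRNA and 35 and 28 under PHGDH siRNA, where 3.92% and 3.64% of all genes were lowered; those counts of calls are not a test of a difference. The mitosis median was 0.01 without replicate 1 of PHGDH-siRNA+Mix and -0.42 without replicate 2 of that group, and genes of a cycle move together, so these counts are not independent. In bulk RNA, fewer cycling cells and less RNA of these genes per cell cannot be told apart.

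In the lists that remain, medians lay between -0.21 and 0.19, and some single genes lay further out. HK2, a hexokinase, had -0.61 (SE 0.27, limma unadjusted p = 0.048; -0.25 without replicate 2 of both PHGDH-siRNA groups), with 21, 20.9 and 23.7 FPKM in Control-siRNA+Mix and 25.5, 15.5 and 19.7 in PHGDH-siRNA+Mix; of 41 glycolysis and hypoxia genes 32 lay below 0, with a median of -0.15. PLK2, a p53 target, was the 1 member of that list of 28 under an unadjusted p of 0.05 (background of negative genes 0.912%). It went from 17, 16.9 and 16.7 to 22.8, 23.3 and 21.4 FPKM with mix under control siRNA and from 31.4, 26.2 and 25.2 to 28.7, 16.1 and 25.5 under PHGDH siRNA (-0.65, SE 0.25; -0.42 without replicate 2 of PHGDH-siRNA+Mix), with no adjusted p under 0.05 in either arm. Cholesterol and fatty acid synthesis genes had 30 of 38 above 0 and a median of 0.08, and 0 were under 0.05. All 13 mitochondrially encoded mRNAs lay above 0 with a median of 0.19, which became 0.03 without replicate 1 of Control-siRNA, the library with the highest mitochondrial share, and 0.02 after quantile normalisation. Immediate early genes had 21 of 26 below 0 (median -0.21), EGFR ligands and pathway genes 17 of 25 (-0.10) and class I antigen presentation genes 17 of 21 (-0.14), with 0 under 0.05 in each. Without 1 library the immediate early median ran from -0.43 to -0.016 and the EGFR median from -0.30 to 0.089. AREG, an EGFR ligand named after its value was seen, had -1.19 with a 95% interval from -4.35 to 1.97. Cytosolic ribosomal proteins (59 tested), oxidative phosphorylation subunits (64), purine and pyrimidine enzymes (22), apoptosis regulators (29), chaperone genes (28), basal keratinocyte genes (20) and the RNA interference machinery (12) had medians from -0.087 to 0.042 and 0 genes under an unadjusted p of 0.05.

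**Figure D3:**
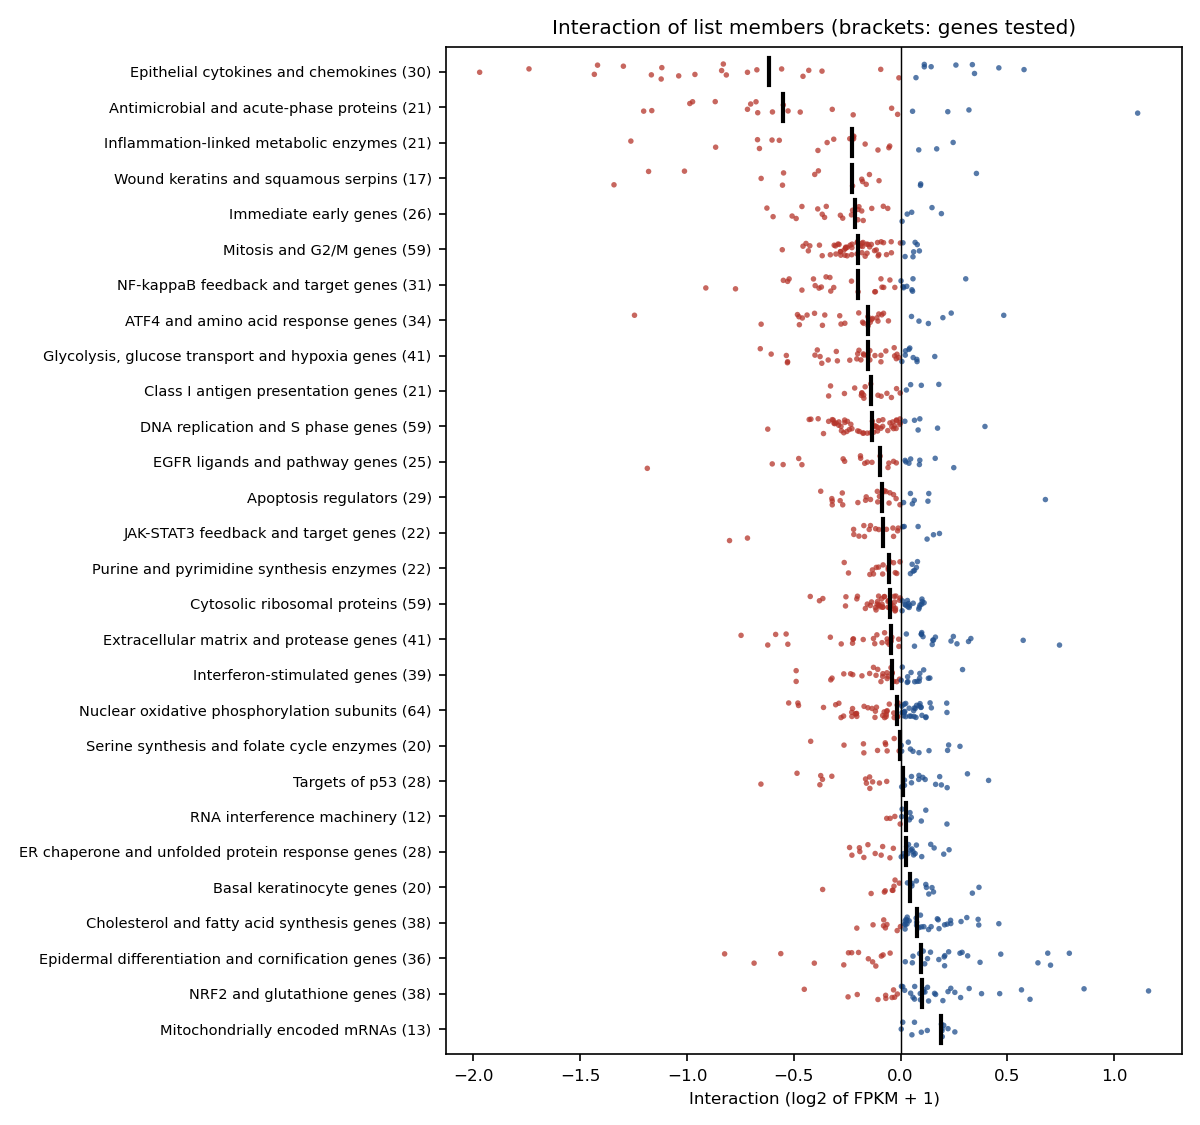
Interaction of each tested member of 28 gene lists, in log2(FPKM + 1), ordered by the list median (black bar); red points lie below 0, blue points above, and the number tested is in brackets. The cytokine list (median -0.615) and the antimicrobial list (-0.55) lie farthest below 0, and the mitochondrially encoded mRNAs (0.19) farthest above.

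Some of the genes ranked highest by unadjusted p were barely covered. The microRNA hairpin loci MIR221, MIR7845 and MIR4685 had interactions of -1.95, -1.84 and -1.31 from at most 7, 4 and 2 reads in any library, and MIR4324 and the U6 snRNA copy RNU6-403P had 0.99 and 1.00 from at most 2 and 3 reads. The kit named in the labels is not a small RNA kit. AC092306.1, AC135050.5 and ARPC3P1, the last a pseudogene, had -0.89, 0.94 and 0.78 from at most 36, 15 and 20 reads. At such depth each library difference of a few reads moves the value, and no level is given for them.

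Over 20 alternatives the genes ranked by unadjusted p kept their direction. Of the 72 named genes, 0 passed in any alternative (lowest limma adjusted p 0.237). The ranked genes had been chosen for arms without overlap, so leaving out libraries could not turn their direction. The filters and the replicate blocks left their values as they were. Only the pseudocount, quantile normalisation and voom could have turned a direction. The size changed with the scale. ACOD1 went from -1.26 to -2.44 under voom, BCL2A1 from -0.77 to -1.82 and AGR2 from 0.78 to 1.55, while CXCL1 stayed near its value at -1.77 and MMP2 at 0.62.

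**Figure D4:**
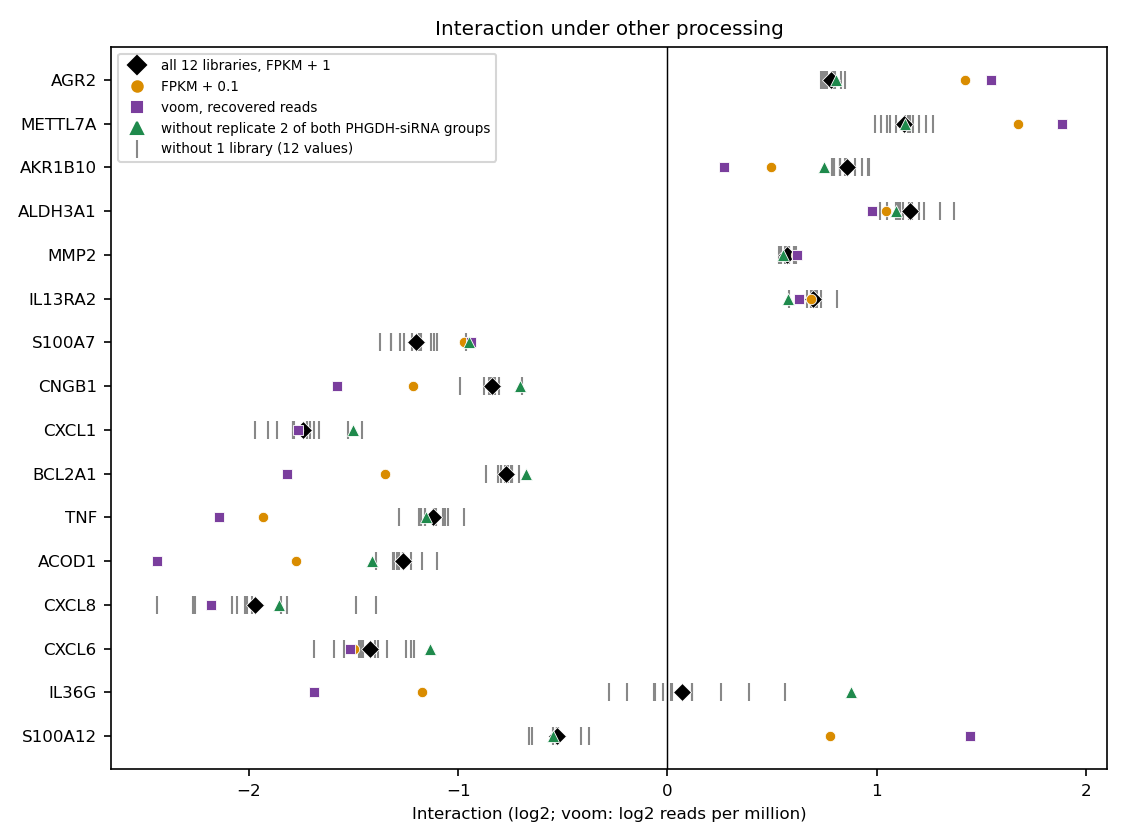
Interaction of 16 genes in log2 units with all 12 libraries (diamond), with a pseudocount of 0.1 (circle), with voom on recovered reads (square), without replicate 2 of both PHGDH-siRNA groups (triangle) and without each library in turn (ticks). Without 1 library, MMP2 ranges from 0.53 to 0.62, CXCL1 from -1.97 to -1.46 and CXCL8 from -2.44 to -1.39, and IL36G lies on both sides of 0. S100A12 stays below 0 without 1 library (-0.66 to -0.37) and lies above 0 with a pseudocount of 0.1 and under voom.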

How the data were processed

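RNA of 12 HaCaT samples was taken up in RNAiso Plus and made into libraries with a NEBNext Ultra kit, per the labels. FPKM per gene were computed and deposited by the authors. Tools listed in the submitters' processing notes are featureCounts 1.5.0-p3, HISAT2 2.0.5 and CASAVA, with the build hg38; the FPKM formula is not given. The members and gene lists were chosen with earlier results of these data known. One limma model of the 4 group means (3.58.1, R 4.3.3; trend, robust) was run on log2(FPKM + 1) of 14577 genes over all 12 samples, with 8 residual degrees of freedom, and two-sided p-values were Benjamini-Hochberg adjusted over all of them. Fold changes on this scale are understated for low genes. Reads were recovered from FPKM and gene length: 100% of values up to 200 reads lay within 0.05 of a whole number. The reads of any 2 libraries differed in at least 22926 genes. Named genes were the 10 positive and 10 negative with the lowest unadjusted p, a group mean of at least 1 FPKM and arms without overlap, a panel of 26, and up to 3 members per list under an unadjusted p of 0.05. Scripts were tested on simulated data. Alternatives were the pseudocount, the filter, quantile normalisation, voom, 2 replicate blocks, replicate 2 of both PHGDH-siRNA groups left out, and each library left out. Replicate numbers were not taken as pairs in the main fit. Deviations of same-numbered libraries correlated above 0.1 in 5 of 18 pairs (-0.387 to 0.775). The 3 pairs of the PHGDH-siRNA arm were among these 5, so the main fit leaves out a likeness seen in that arm. Within the PHGDH-siRNA arm the 3 pairs correlated at 0.69, 0.775 and 0.459, and within the control arm at -0.288, 0.0456 and -0.112. The fit with a block within arms is given for the counts over all genes and for CHAC1. For all other genes the SE, interval and unadjusted p are those of the fit without pairs, and may differ with pairing. With the block the limma adjusted p was 0.471 for CXCL8 and METTL7A, 0.704 for ACOD1 and 0.765 for CXCL1.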

Additional observations from a re-analysis of the deposited data

How the results depend on the processing

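No gene passed at an adjusted p under 0.05 under 19 of 20 alternatives. Without a filter 5 passed (RNU6-501P, AC044802.2, AC007066.1, AC108515.1 and AC109454.4, none with more than 2 reads in a library). The lowest adjusted p was 0.422 with a pseudocount of 0.1, 0.449 after quantile normalisation, 0.471 with a replicate block within each siRNA arm, 1 with a replicate block over all groups, 0.0803 without replicate 2 of both PHGDH-siRNA groups, and 0.109 to 1 when leaving out 1 library. Same-numbered libraries correlated best with their own number in 5 of 18 pairs, among them all 3 of the PHGDH-siRNA arm, and the block changed no call. Genes at an unadjusted p under 0.05 numbered 678 (2.08%) without a filter, 486 (3.33%) with the replicate block within arms, 598 (4.1%) without both replicate 2 libraries, and 190 to 425 without 1 library. The most, 406 and 425, came without replicate 2 of PHGDH-siRNA and of PHGDH-siRNA+Mix. Arms without overlap numbered 393 without a filter, 962 without both replicate 2 libraries and 240 to 537 without 1 library, where fewer differences are compared. The cytokine median was -1.02 with a pseudocount of 0.1, -1.03 under voom and -0.40 without both replicate 2 libraries. The antimicrobial median was -0.40 without a filter and -0.083 without both, the S phase median -0.27 without both, and the mitochondrially encoded median 0.017 after quantile normalisation. Signs turned for PSAT1 (0.046), TRIB3 (0.11) and CCL20 (0.028) without both replicate 2 libraries, for IL36G (-1.17), ARID3B (-0.036) S100A12 (0.78) and IL24 (-0.17) with a pseudocount of 0.1, and for IL36G (-1.69), ARID3B (-0.051), CCL20 (0.036), S100A12 (1.45) and IL24 (-0.47) under voom. Leaving out 1 library also turned the sign of some genes, not all of them near 0, with ranges of -0.90 to 0.071 for LCN2, -0.52 to 0.42 for PSAT1, -0.50 to 0.22 for SHMT2, -0.66 to 0.43 for TRIB3, -0.50 to 0.22 for MTHFD2, -0.28 to 0.56 for IL36G, -0.062 to 0.29 for PHGDH, -1.24 to 0.33 for KRT16, -0.35 to 0.46 for PSPH, -1.19 to 0.24 for DDIT3, -0.12 to 0.54 for IL23A, -0.034 to 0.16 for ARID3B, -0.71 to 0.022 for CCL20, -2.20 to 0.074 for AREG, -0.12 to 0.50 for NQO1, -1.28 to 0.46 for TGM1 and -0.12 to 0.30 for HMOX1. Medians without 1 library ran from -0.070 to 0.083 for serine synthesis and folate cycle enzymes, -0.78 to -0.30 for epithelial cytokines and chemokines, -0.72 to -0.32 for antimicrobial and acute-phase proteins, -0.31 to -0.14 for NF-kappaB feedback and target genes, -0.098 to 0.0033 for JAK-STAT3 feedback and target genes, -0.048 to 0.21 for basal keratinocyte genes, -0.13 to 0.20 for epidermal differentiation and cornification genes and -0.31 to -0.081 for DNA replication and S phase genes. They ran from -0.099 to 0.026 for targets of p53, -0.073 to 0.062 for ER chaperone and unfolded protein response genes, -0.22 to 0.0042 for class I antigen presentation genes, -0.12 to 0.088 for extracellular matrix and protease genes, 0.028 to 0.27 for mitochondrially encoded mRNAs, -0.13 to 0.10 for purine and pyrimidine synthesis enzymes, -0.41 to -0.19 for inflammation-linked metabolic enzymes, 0.0034 to 0.14 for RNA interference machinery and -0.18 to -0.038 for apoptosis regulators. The ranges were -0.53 to 0.15 for ATF4 and amino acid response genes, -0.42 to 0.014 for mitosis and G2/M genes, -0.26 to 0.094 for interferon-stimulated genes, -0.50 to -0.036 for wound keratins and squamous serpins, -0.30 to 0.089 for EGFR ligands and pathway genes and -0.43 to -0.016 for immediate early genes. They were -0.031 to 0.24 for cholesterol and fatty acid synthesis genes, -0.24 to 0.014 for glycolysis, glucose transport and hypoxia genes, -0.034 to 0.19 for NRF2 and glutathione genes, -0.15 to 0.12 for oxidative phosphorylation subunits and -0.20 to 0.13 for cytosolic ribosomal proteins. The causes were not tested. Precision is limited by the spread between 3 libraries a group and, under about 20 reads, by counting error.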
